A study of Serinus canaria and Ploceus bicolor and Uraeginthus cyanocephalus with 155 samples.

Results

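The 150 transcripts described here had the most consistent excess of RNA in the song nucleus HVC over the entopallium. They were chosen from 26061 transcripts on the array. In each of 11 groups of birds, the mean log2 level in the entopallium was subtracted from that in HVC. The smallest of the 11 differences was taken for every transcript, and the 150 transcripts with the highest value were kept. A transcript with a large excess in only some species, or in 1 sex, was therefore not selected. Since the difference between HVC and entopallium chose the transcripts, it is given below as a description without a test.

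HVC (used as the proper name) is a premotor nucleus of the songbird forebrain. Its neurons drive the motor pathway for song and also project to the basal ganglia circuit that is needed for song learning. HVC cells express receptors for androgens, and in canaries the nucleus changes with season and with testosterone. The entopallium is a forebrain area that receives visual input by way of the optic tectum and the thalamus, and it lies outside the song control system. The molecular layer of the cerebellum, sampled here in some canaries, consists largely of Purkinje cell dendrites and granule cell axons.

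All birds were adult. The groups of HVC comprised breeding singing males and females of forest weavers and of blue-capped cordon-bleus, and 7 groups of canaries. According to the paper, the weavers were wild birds caught at their breeding territories, and the cordon-bleus were kept under long days. In canaries there were singing birds of either sex with a testosterone implant, which were non-breeding and on short days. There were also short-day, non-breeding females that sang without treatment (spontaneous singers). According to the paper, these females had been found in an earlier study with long-term monitoring. Breeding males that sang and breeding females that did not were on long days, and the males and females that neither bred nor sang were on short days. Testosterone was given as a Silastic implant, and the other birds were untreated. There were 66 arrays of HVC with 6 birds in every group, 65 arrays of the entopallium, for which the females that neither bred nor sang numbered 5 and the other groups 6, and 24 arrays of the cerebellum. These came from canaries of both sexes, breeding or not, without implants. For the HVC of the females that neither bred nor sang, the sample descriptions hold 6 birds where the methods of the paper count 5, and all were used. The protocol text of the implanted birds mentions no treatment. They were taken as testosterone-treated because the remaining sample fields and the methods of the paper give it. Probes were designed on the zebra finch, so expression and hybridisation cannot be told apart where levels differ between species. In dissected tissue, a lower level can come from fewer cells of a type or from less RNA per cell, and these cannot be told apart either.

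The files do not pair identifiers with gene names. A table of 17915 canary genes held 0 of them. The dissected tissues could therefore not be checked against marker genes, and the transcripts are named by their identifiers. Of the 150, 85 carry zebra finch Ensembl identifiers, which made up 56.7% of the set and 45.8% of all transcripts on the array. A further 32 are predicted RefSeq mRNAs, which made up 21.3% of the set and 40.2% of the array. Another 10 are chicken Ensembl transcripts (6.67% of the set, 2.01% of the array).

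Of the arrays of HVC and entopallium, 4 stood apart in these transcripts. For every array, the mean level of the 150 transcripts was placed on a scale on which the other entopallium arrays of its group lie at 0% and the other HVC arrays at 100%. Apart from 4 arrays, HVC arrays lay between 89.2% and 113% and entopallium arrays between -23.5% and 9.47%. The HVC array of 1 forest weaver female (replicate 1) lay at 60.9%, with a mean level of 8.31 where the other 5 birds of its group had 9.03 to 9.18. Over all transcripts, its profile correlated about equally with the mean HVC profile (r = 0.977) and with the mean entopallium profile (r = 0.976) of its group. The entopallium arrays of a cordon-bleu male (replicate 5) and of 2 testosterone-implanted canary females (replicates 2 and 6) lay at 34.7%, 40.8% and 22.6%. What set these arrays apart was not tested. The arrays were kept, and several main results that rest on them are also given without them.

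**Figure D1:**
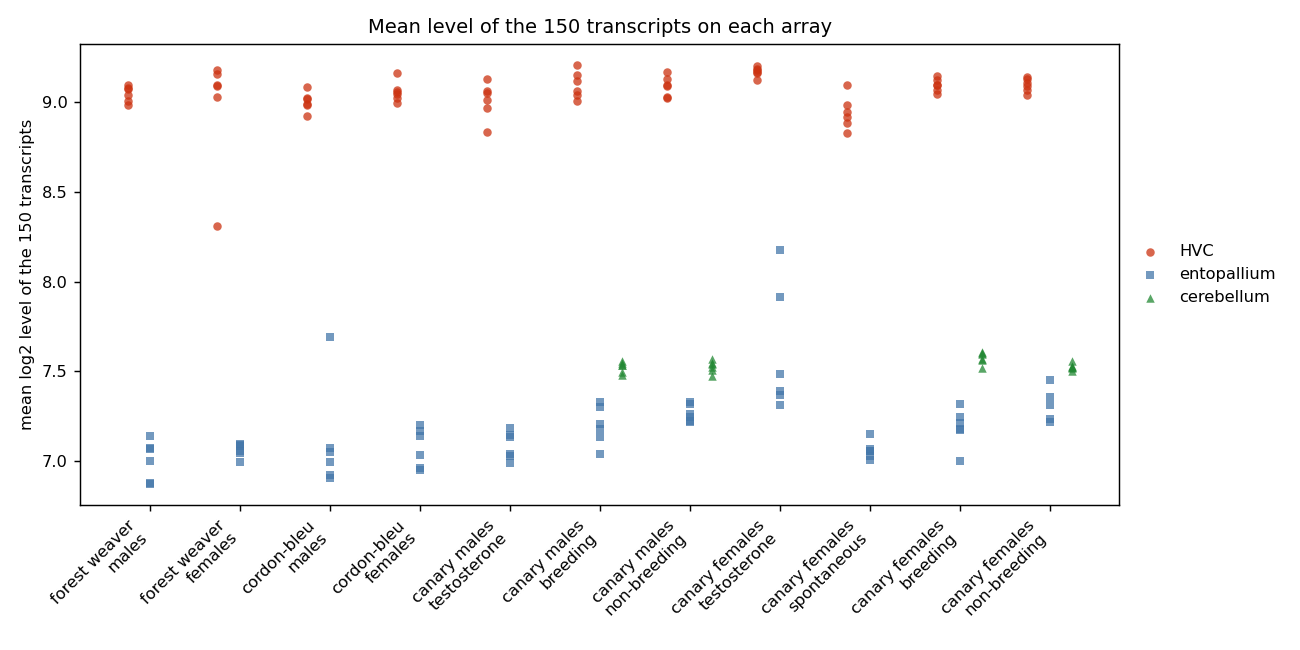
Mean log2 level of the 150 transcripts (y axis) on each array, by group (x axis). Every point is 1 bird, with HVC as circles, entopallium as squares and cerebellum as triangles. The forest weaver female at 8.31 in HVC, the cordon-bleu male at 7.69 and the implanted canary females at 8.18 and 7.91 in the entopallium lie away from the other birds of their groups.

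The smallest difference over the 11 groups ranged from 0.98 to 3.76 on the log2 scale among the 150 transcripts, with a median of 1.20. The mean difference ranged from 1.13 to 4.13, with a median of 1.76. The edge of the set was not a gap. The transcript at rank 150, XM_002192649, had a smallest difference of 0.978, and the first one outside the set, ENSTGUT00000009646, had 0.977. Of all transcripts, 2803 had a difference above 0 in all 11 groups, 521 had at least 0.5 in all of them and 143 had at least 1.

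In HVC the 150 transcripts had a median level of 9.04, and their median percentile among the signals of all transcripts was 86.4. Signals of different probes do not measure the relative abundance of RNAs. In the entopallium the median level was 7.15, at a median percentile of 46.2. The members ranged from 5.63 to 12.27 in HVC and from 3.97 to 10.60 in the entopallium, while all transcripts had a median of 7.30 in HVC and 7.31 in the entopallium.

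The median difference was similar across species, which the rule favours, since it demanded a high difference in every group. It was 1.88 in forest weaver males and 1.74 in forest weaver females, 1.81 in cordon-bleu males and 1.86 in cordon-bleu females. In canaries it was 1.82 in testosterone-implanted males, 1.74 in breeding males and 1.69 in non-breeding males. In canary females it was 1.41 after testosterone implantation, 1.79 in spontaneous singers, 1.80 in breeding birds and 1.64 in non-breeding birds. The median over all transcripts lay between -0.08 and 0.04 in the 11 groups. The implanted females were the group with the smallest difference for 58 of the 150 transcripts, and the non-breeding females for 21. Without the 4 arrays that stood apart it was 28 transcripts for either group. Without the 4 arrays described above, the median was 1.92 in forest weaver females, 1.92 in cordon-bleu males and 1.65 in implanted females, and the same rule replaced 19 of the 150 transcripts.

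**Figure D2:**
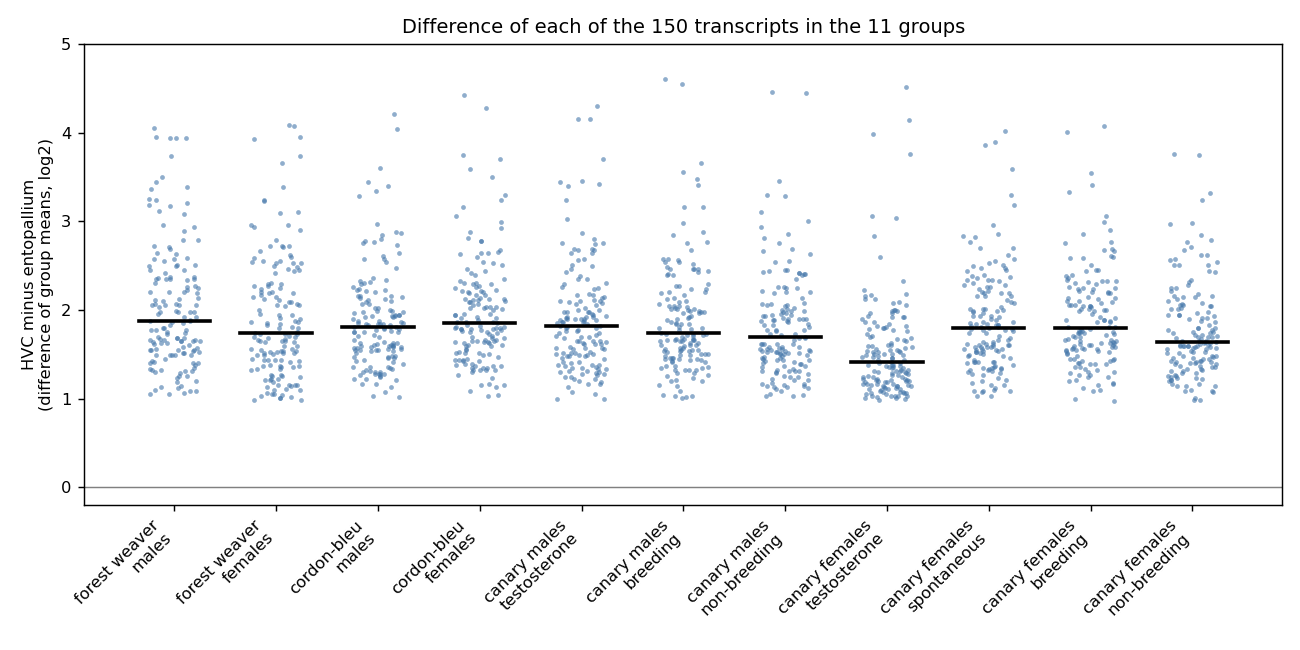
Difference between the group means of HVC and entopallium (y axis, log2) for each of the 150 transcripts (points) in the 11 groups (x axis), with the median as a bar. Every point lies at or above 0.978, since the selection demanded it, and the medians lie between 1.41 in testosterone-implanted canary females and 1.88 in forest weaver males.

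Single birds were less uniform than group means. In forest weavers, the lowest HVC level lay above the highest entopallium level for 142 of the 150 transcripts, in cordon-bleus for 141 and in canaries for 107. Over all transcripts this held for 4.62% in forest weavers, 8.27% in cordon-bleus and 1.82% in canaries. Over all 66 HVC and 65 entopallium arrays together it held for 37 of the 150 transcripts and for 0.265% of all transcripts. Without the 4 arrays that stood apart it held for 149 transcripts in forest weavers, 148 in cordon-bleus, 136 in canaries and 104 over all species together, and for 5.77%, 8.72%, 2.49% and 0.894% of all transcripts. These shares follow from the selection and were not tested. Of the birds, 50 have the same bird number in the titles of both tissues. In 46 of these pairs of arrays all 150 transcripts were higher in HVC than in the entopallium, and in the others, each with an array that stood apart, at least 147 were. The median difference within a pair ranged from 0.93 to 2.10. The lowest value came from an implanted female whose entopallium array was replicate 2.

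The leading 2 transcripts exceeded all others by a wide margin in the smallest difference over the 11 groups, and behaved alike. In single groups another transcript could be higher. In implanted canary females XM_002190533 had a difference of 4.52, against 3.99 and 4.14 for the leading 2. ENSGALT00000014509 had a smallest difference of 3.76, where the transcript at rank 3, NM_001048258, had 2.20. Its HVC level was between 9.10 and 9.95 in forest weavers (median 9.60), between 9.50 and 10.59 in cordon-bleus (median 9.96) and between 9.24 and 10.60 in canaries (median 9.98). In the entopallium it was between 5.49 and 5.90 in forest weavers (median 5.62), between 5.19 and 7.39 in cordon-bleus (median 5.59) and between 5.48 and 7.70 in canaries (median 5.69). The HVC birds lay above all entopallium birds in every species. The entopallium maxima of cordon-bleus and canaries both came from arrays that stood apart.

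ENSTGUT00000004647, the second transcript, had a smallest difference of 3.75. Its HVC level was between 9.54 and 10.63 in forest weavers (median 10.13), between 9.84 and 10.93 in cordon-bleus (median 10.33) and between 10.20 and 11.63 in canaries (median 11.22). In the entopallium its median was 6.19 in forest weavers, 6.09 in cordon-bleus and 6.88 in canaries, with a highest single value of 8.82 in a canary. HVC and entopallium did not overlap. Within groups, the HVC levels of both transcripts had a correlation of 0.939 over 66 arrays, the highest of any pair in the set. It is a description, since both levels come from the same arrays. Without annotation it is not known whether the identifiers stand for the same gene. The second highest correlation was 0.936, between XR_054422 and ENSTGUT00000011838, and the third was 0.924, between XM_002194650 and ENSTGUT00000008002.

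The difference was not constant over groups. The range of a transcript's difference over the 11 groups had a median of 1.01 and reached 2.72 in XM_002190533, which had the widest range. This transcript had a difference of 4.52 in testosterone-implanted canary females, 3.29 in spontaneously singing females, 2.77 in breeding females and 1.80 in non-breeding females. In males it was 4.15 after implantation, 3.41 in breeding canaries and 3.29 in non-breeding canaries. It was 3.95 in forest weaver males and 3.66 in females, and 2.78 in both sexes of cordon-bleus. At the other end, ENSTGUT00000004117 had differences between 1.02 and 1.34 in the 11 groups, a range of 0.33.

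Among birds of the same group, the 150 transcripts varied more than the rest of the array in HVC and in the entopallium. The median SD within groups was 0.223 for the 150 and 0.159 for all transcripts in HVC, and 0.243 for the 150 and 0.143 for all in the entopallium. In the cerebellum, which the selection did not use, it was 0.170 for the 150 and 0.157 for all. Within groups, the levels of the 150 transcripts had a mean pairwise correlation of 0.249 in HVC, 0.370 in the entopallium and 0.012 in the cerebellum, where all transcripts had 0.027, 0.024 and 0.025 in the same tissues. Much of the correlation was carried by a few arrays. Without the 4 arrays that stood apart, the mean correlation of the 150 was 0.085 in HVC and 0.148 in the entopallium. All transcripts then had 0.027 and 0.023. The median SD of the 150 was then 0.198 and 0.195, against 0.156 and 0.142 for all transcripts. These correlations share arrays and are descriptive.

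The cerebellum gave levels that had no part in the selection. The HVC and entopallium levels set against them were used by it. The differences and counts that follow are therefore partly set by the rule and are descriptions without a test. Over the 4 canary groups measured in all 3 tissues, the level in the cerebellum minus that in HVC had a median of -1.55 for the 150 transcripts and 0.05 for all transcripts. The level in the cerebellum minus that in the entopallium had a median of 0.08 for the 150 and 0.03 for all. The transcripts spread much more widely than this median shows, between 2.71 below the entopallium and 4.92 above it. In the cerebellum, 67 of the 150 were below the entopallium, 63 lay between the entopallium and HVC and 20 were above HVC. At least 1 log2 unit above the entopallium were 35, and at least 1 unit below it were 20. The same counts were not made over all transcripts. Both leading transcripts were among those with a high cerebellar level. ENSGALT00000014509 ranged from 9.38 to 10.07 over the 24 cerebellum arrays (median 9.61), and ENSTGUT00000004647 from 10.96 to 11.47 (median 11.20). These levels overlapped with those of HVC in canaries and lay above every entopallium array.

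**Figure D3:**
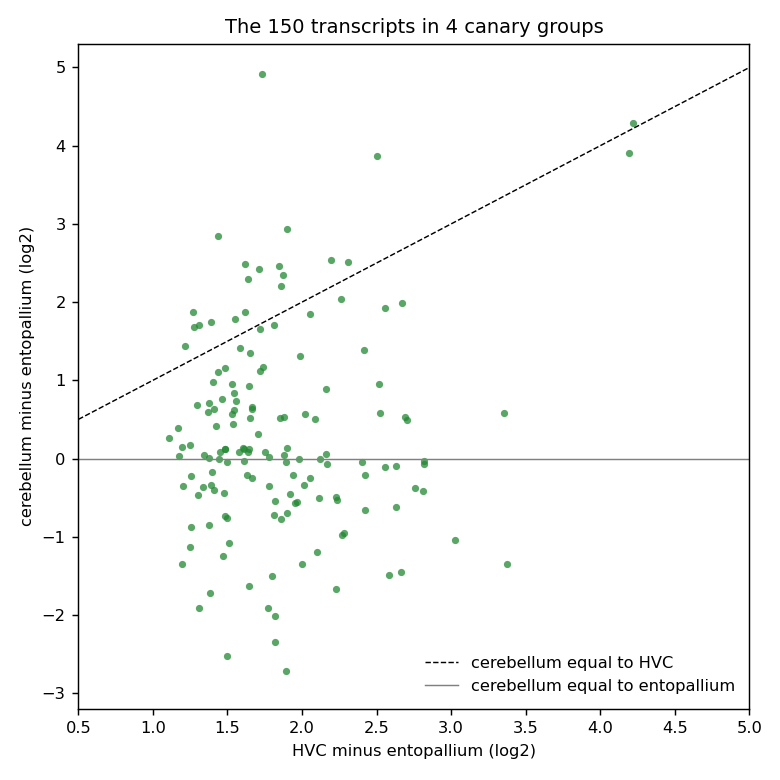
Level in the cerebellum minus that in the entopallium (y axis, log2) against level in HVC minus that in the entopallium (x axis, log2) for the 150 transcripts, as means of 4 canary groups (males and females, breeding or not). Points above the dashed line (20) were higher in the cerebellum than in HVC, and points below the grey line (67) were lower in the cerebellum than in the entopallium. The pair at the right are the leading 2 transcripts.

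Sex, season, singing and testosterone were then compared within each tissue. Each comparison took 2 groups of birds, was tested with limma over all 26061 transcripts and was adjusted with the Benjamini-Hochberg method. Calls required an adjusted p below 0.05 together with a log2 fold change of 0.5 or more in either direction. Adjustment was made within each comparison and not over the 20 comparisons together. The p-values measure the spread between birds of a group. The HVC and entopallium arrays in these comparisons also served to choose the 150 transcripts, whose signals in HVC are higher than those of most transcripts, and the part of this in the shares called was not tested. Of the 150 transcripts, 103 (68.7%) were called in at least 1 of 20 comparisons and 47 in none, where 22.8% of all transcripts were called at least once. In HVC comparisons 56 were called (37.3%, background 13.8%), in entopallium comparisons 72 (48%, background 13.5%) and in cerebellum comparisons 1 (0.667%, background 1.17%). In the entopallium of implanted females, 32 were called higher with all arrays and 11 without the 2 arrays that stood apart. The totals of 72 and 103 were not counted again without these arrays.

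Sex differences in HVC were largest in number in breeding canaries. Of the 150 transcripts, 14 were higher in males (background over all transcripts 2.1%) and 9 were higher in females (background 1.23%), which is 9.33% and 6% of the set. The median fold change of the set, males minus females, was -0.01, against 0.01 for all transcripts. Males and females did not overlap for 29 of the 150 (19.3%, background 12.4%). Under total intensity and quantile scaling the direction of every transcript named here was kept.

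ENSTGUT00000001711 had the largest excess in breeding males. Its HVC level was between 9.57 and 10.42 in males (median 10.07) and between 8.89 and 9.48 in females (median 9.06). Every male lay above every female. The log2 fold change was 0.95 (SE 0.14, limma adjusted p = 0.000311). XM_002189086 followed with 8.61 to 9.70 in males (median 8.86) and 7.73 to 8.52 in females (median 8.21), a log2 fold change of 0.89 (SE 0.19, limma adjusted p = 0.00495).

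Among the transcripts lower in breeding males, XR_054890 was between 7.26 and 8.07 in males (median 7.82) and between 8.29 and 9.03 in females (median 8.65). Its log2 fold change was -0.88 (SE 0.14, limma adjusted p = 0.00054). ENSTGUT00000008991 was between 9.27 and 10.00 in males (median 9.72) and between 10.23 and 10.66 in females (median 10.51), a log2 fold change of -0.84 (SE 0.13, limma adjusted p = 0.000579). The sexes did not overlap in either transcript.

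In non-breeding canaries, 8 of the 150 were higher in males (background 1.42%) and 4 were higher in females (background 0.276%). The median of the set was -0.05, against 0.00 for all transcripts, and the sexes did not overlap for 26 of the 150 (background 6.15%). XM_002190533 was between 8.21 and 9.81 in males (median 9.23) and between 7.501 and 8.003 in females (median 7.71), a log2 fold change of 1.36 (SE 0.20, limma adjusted p = 0.00064). ENSTGUT00000001687 was between 8.13 and 8.40 in males (median 8.29) and between 7.35 and 7.90 in females (median 7.55), a log2 fold change of 0.71 (SE 0.08, limma adjusted p = 7.18e-05). All males lay above all females in both.

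XM_002194650 and ENSTGUT00000008002, the pair with the third highest correlation, were lower in non-breeding males. XM_002194650 was between 9.69 and 10.13 in males (median 9.75) and between 10.58 and 10.91 in females (median 10.74), with a log2 fold change of -0.90 (SE 0.09, limma adjusted p = 1.74e-05). ENSTGUT00000008002 was between 9.73 and 9.93 in males (median 9.76) and between 10.33 and 10.63 in females (median 10.50), with a log2 fold change of -0.68 (SE 0.06, limma adjusted p = 1.12e-05). No male reached the level of a female.

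The breeding and the non-breeding comparisons of the sexes share no bird. Of the 14 and 8 transcripts higher in males, 3 were in both lists, 21.4% of the breeding list and 37.5% of the non-breeding list. They were ENSGALT00000014509, ENSTGUT00000001687 and XM_002189086. The leading transcript, ENSGALT00000014509, had a log2 fold change of 0.52 (SE 0.12, limma adjusted p = 0.0062) in breeding and of 0.65 (SE 0.09, limma adjusted p = 0.000513) in non-breeding birds. Of the 9 and 4 lower in males, 1 was shared. Here and below, the overlap of lists was not counted over all transcripts. What the list sizes alone would give was not worked out.

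In testosterone-implanted canaries, 0 of the 150 were higher in males (background 0.821%) and 6 were higher in females (background 0.622%), with a median of -0.16 for the set, males minus females, against 0.04 for all transcripts. Over the array as a whole, 214 transcripts were higher and 162 lower in males in the deposited levels, 164 and 200 after quantile scaling and 168 and 193 after total intensity scaling. Of the 150, 8 were then lower in males after quantile scaling and 7 after total intensity scaling. XM_002187626 was between 4.86 and 5.29 in males (median 4.98) and between 5.50 and 5.88 in females (median 5.56), a log2 fold change of -0.59 (SE 0.09, limma adjusted p = 0.00312). ENSTGUT00000010408 was between 5.90 and 6.34 in males (median 6.10) and between 6.47 and 6.83 in females (median 6.69), a log2 fold change of -0.58 (SE 0.09, limma adjusted p = 0.00256). The sexes did not overlap in either transcript, and for 12 of the 150 in all (background 6.67%). The count was 3 without the male of replicate 2.

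Few or no sex differences were called in the other species. In cordon-bleus 1 of the 150 was higher in males (background 1.04%) and 0 were higher in females (background 0.0614%), and 24 (16%) had an unadjusted p under 0.05, as had 8.48% of all transcripts. The 1 called was ENSTGUT00000001687, which was also called in breeding and non-breeding canaries. It was between 7.35 and 8.04 in cordon-bleu males (median 7.80) and between 6.74 and 7.40 in females (median 7.15), a log2 fold change of 0.66 (SE 0.13, limma adjusted p = 0.00999). The sexes overlapped slightly, and for 0 of the 150 were they fully separate (background 2.01%). In forest weavers limma called 0 of the 150 in either direction (background 0% and 0%), and 3 (2%) had an unadjusted p under 0.05, as had 5.55% of all transcripts. The median of the set, males minus females, was 0.06, and -0.08 without the forest weaver female that stood apart. Without that array the count was also 0. With all arrays, the sexes were fully separate for 0 of the 150 (background 0.249%). ENSTGUT00000001687 was between 8.14 and 8.67 in forest weaver males (median 8.45) and between 7.44 and 8.22 in females (median 7.78), with a log2 fold change of 0.57 (SE 0.13, limma adjusted p = 0.373).

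**Figure D4:**
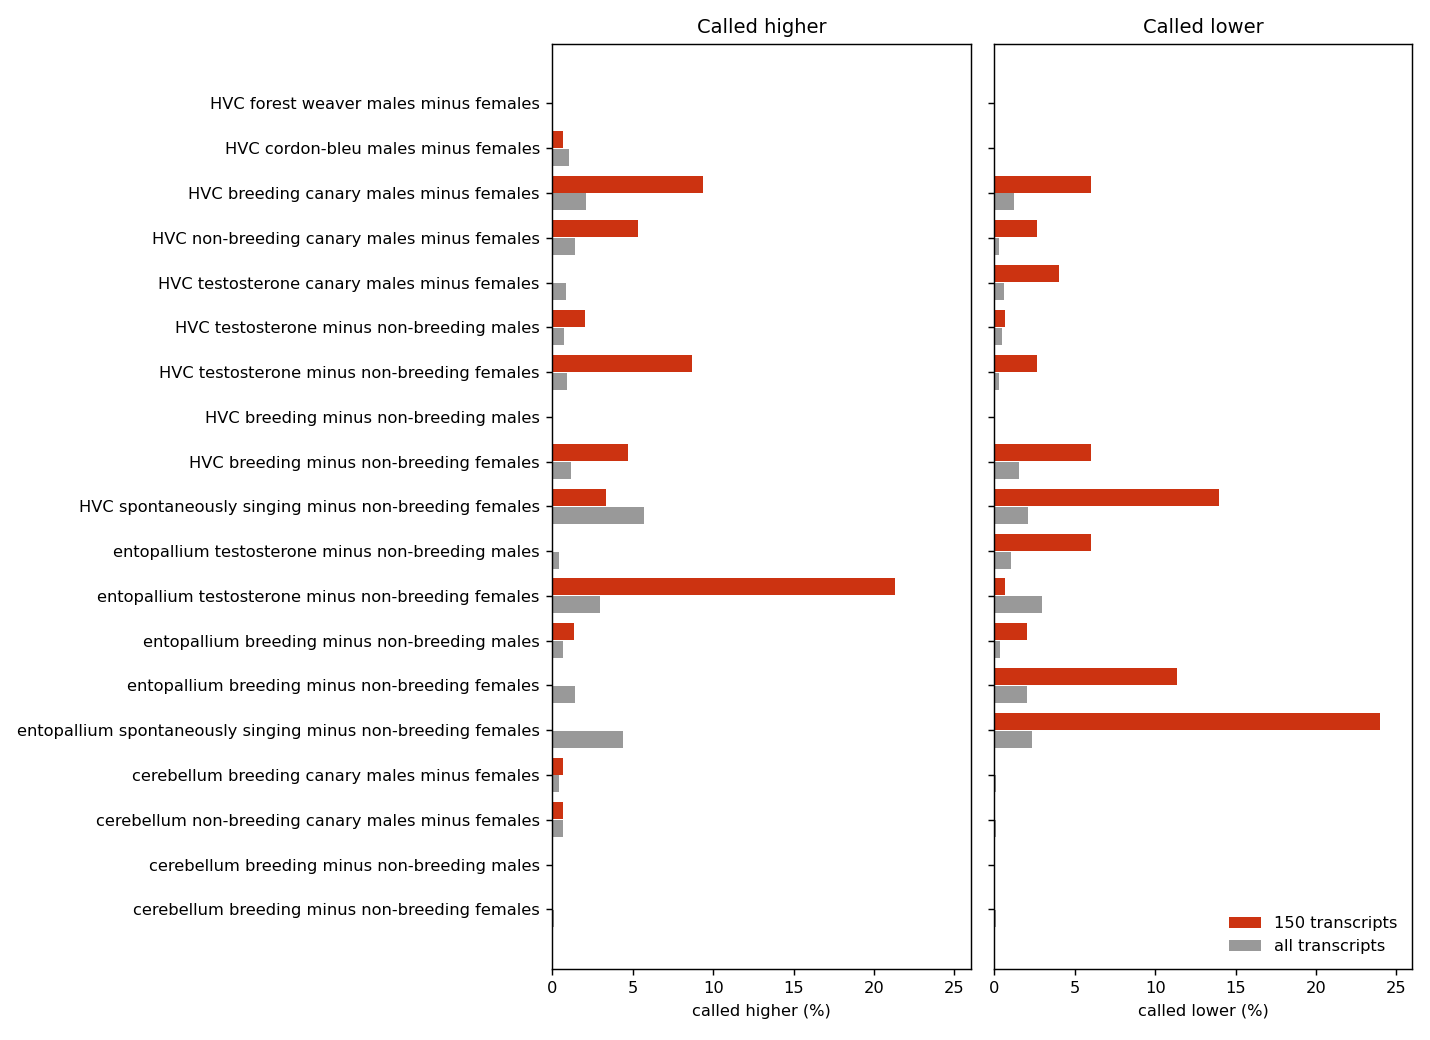
Share of the 150 transcripts (red) and of all transcripts (grey) called higher (left panel) and lower (right panel) in each of 19 pairwise comparisons, in percent. Each difference is named at the left. The longest bars are those of spontaneously singing females in the entopallium (24% lower) and of testosterone-implanted females in the entopallium (21.3% higher). The latter stands for 32 transcripts, which were 11 without the 2 arrays that stood apart.

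Testosterone implantation was compared with non-breeding non-singing birds of the same sex. The implanted birds sang and the others were untreated, so testosterone, the implant itself and singing cannot be told apart. In the HVC of females, 13 of the 150 transcripts were higher after implantation (background 0.883%) and 4 were lower (background 0.265%), which is 8.67% and 2.67% of the set. Implanted and non-breeding females did not overlap for 32 of the 150 (21.3%, background 6.95%). The median of the set was -0.01, against -0.02 for all transcripts, with 73 of the 150 above 0 and 77 below. The mean level of the set was 9.17 ± 0.03 in implanted females and 9.10 ± 0.04 in non-breeding females (SD, n = 6 each).

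XM_002190533 changed more than any other of the 150. Its HVC level was between 9.88 and 10.91 in implanted females (median 10.37) and between 7.501 and 8.003 in non-breeding females (median 7.71), a log2 fold change of 2.68 (SE 0.14, limma adjusted p = 5.4e-07). XM_002189086 was between 8.50 and 9.58 in implanted females (median 9.27) and between 7.004 and 7.90 in non-breeding females (median 7.72), a log2 fold change of 1.55 (SE 0.19, limma adjusted p = 0.000449). The groups were separate in both transcripts.

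The correlated pair fell. XM_002194650 was between 9.43 and 10.22 in implanted females (median 10.09) and between 10.58 and 10.91 in non-breeding females (median 10.74), with a log2 fold change of -0.78 (SE 0.11, limma adjusted p = 0.00113). ENSTGUT00000008002 was between 9.44 and 10.00 in implanted females (median 9.97) and between 10.33 and 10.63 in non-breeding females (median 10.50), with a log2 fold change of -0.64 (SE 0.10, limma adjusted p = 0.00146). In both, no implanted female reached the lowest non-breeding female.

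In the HVC of males, 3 of the 150 transcripts were higher after implantation (background 0.695%) and 1 was lower (background 0.491%), with a median of -0.12, against 0.02 for all transcripts. Over the whole array, 181 transcripts were higher and 128 lower in the deposited levels, 145 and 149 after quantile scaling and 145 and 175 after total intensity scaling. Under both scalings 2 of the 150 were higher and 3 lower. NM_001048258, at rank 3 of the set, was between 8.32 and 9.22 in implanted males (median 8.47) and between 6.41 and 8.14 in non-breeding males (median 6.96). The groups did not overlap, and the log2 fold change was 1.50 (SE 0.25, limma adjusted p = 0.00925). Across the set, groups did not overlap for 11 of the 150 (background 5.03%). The count of 4 was 1 without the non-breeding male of replicate 1 or the implanted male of replicate 2 or 4, 2 without the non-breeding male of replicate 6, 8 without the implanted male of replicate 3 and 9 without that of replicate 5. The 3 transcripts higher in implanted males, ENSGALT00000039273, NM_001048258 and XM_002190533, were all among the 13 higher in implanted females, and these comparisons share no bird. This overlap has no background over all transcripts.

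Whether the change with implantation, which came with singing in both sexes, differed between the sexes was tested as an interaction. For 2 of the 150 the change in males minus that in females was positive (background 0.76%) and for 9 it was negative (background 1.27%). The median of this difference was -0.16 for the set, against 0.04 for all transcripts. XM_002190533 was between 9.28 and 10.29 in implanted males (median 9.94) and between 8.21 and 9.81 in non-breeding males (median 9.23), a log2 fold change of 0.80 (SE 0.23, limma adjusted p = 0.0494). Together with the females above, its interaction was -1.88 (SE 0.28, limma adjusted p = 0.000921). Implanted males and females had overlapping levels of this transcript, whereas non-breeding males lay above all non-breeding females.

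ENSGALT00000014509, the leading transcript, was between 9.63 and 10.21 in implanted males (median 9.86) and between 10.06 and 10.46 in non-breeding males (median 10.17). In females it was between 9.86 and 10.36 after implantation (median 10.16) and between 9.28 and 9.82 without (median 9.61). The change was -0.34 (SE 0.10, limma adjusted p = 0.0597) in males and 0.59 (SE 0.10, limma adjusted p = 0.00311) in females, and the interaction was -0.93 (SE 0.15, limma adjusted p = 0.00141). For the second transcript, ENSTGUT00000004647, the interaction was -0.81 (SE 0.15, limma adjusted p = 0.00365).

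Both transcripts named for a positive interaction were lower in implanted females. For XM_002194650, implanted males (9.66 to 10.15, median 9.78) and non-breeding males (9.69 to 10.13, median 9.75) overlapped, and the interaction was 0.78 (SE 0.16, limma adjusted p = 0.00806). ENSTGUT00000008337 was between 6.79 and 7.46 in implanted males (median 7.12) and between 7.07 and 7.26 in non-breeding males (median 7.14). In females it was between 7.05 and 7.47 after implantation (median 7.24) and between 7.65 and 7.99 without (median 7.78). Its interaction of 0.50 (SE 0.13, limma adjusted p = 0.0228) lay at the fold change threshold and dropped to 0.48 under quantile and total intensity scaling.

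**Figure D5:**
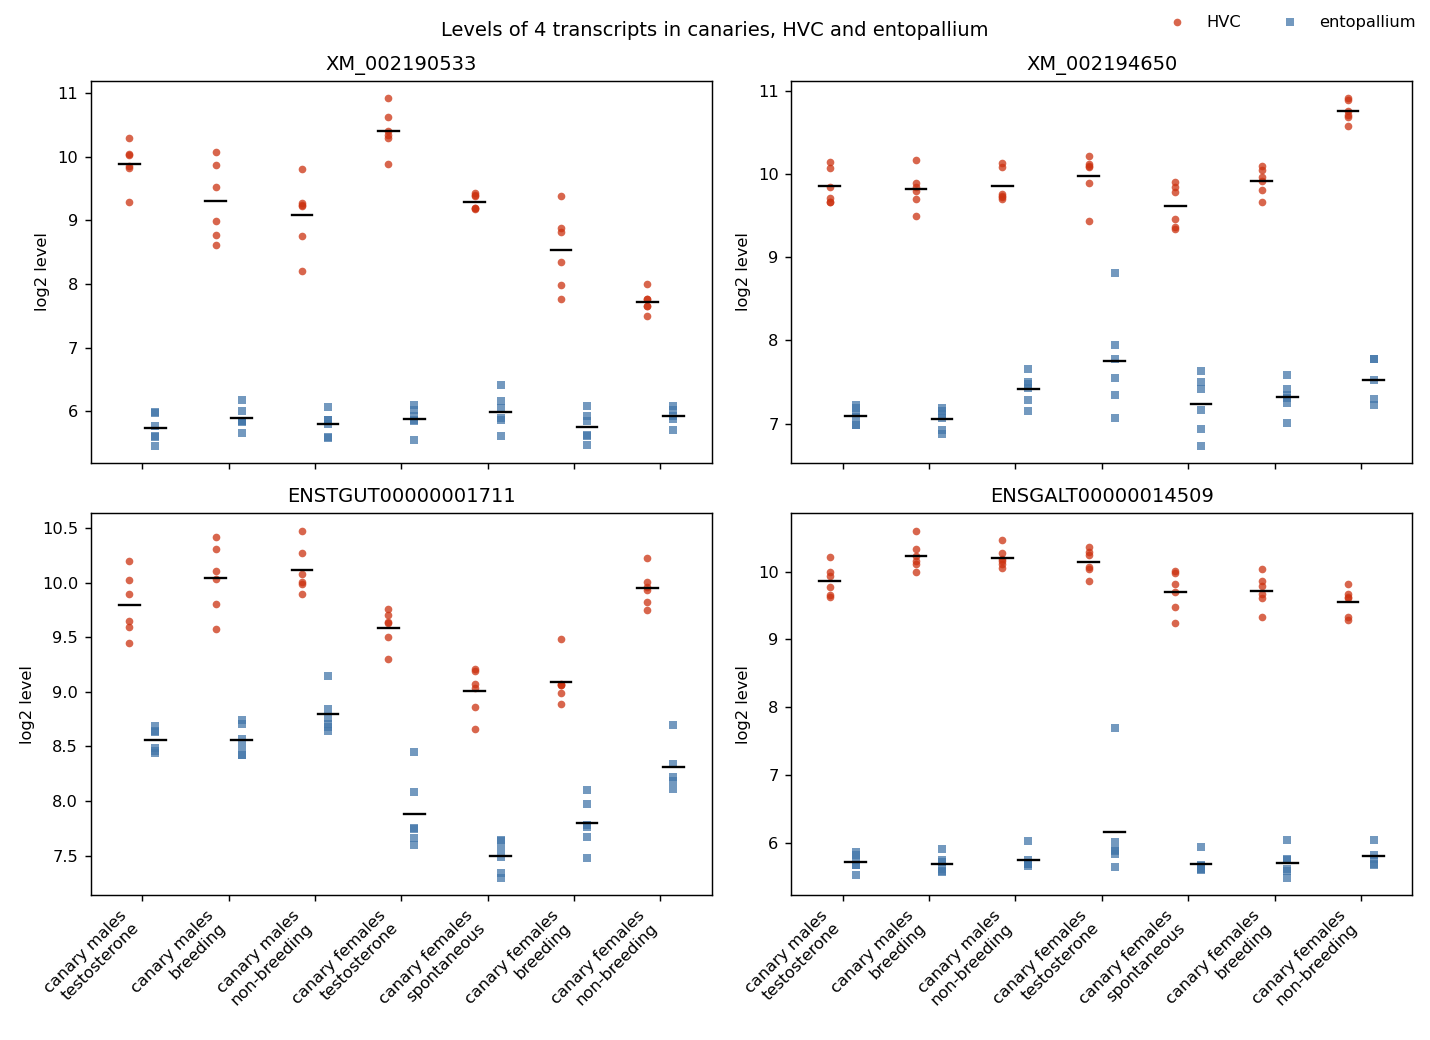
Log2 level (y axis) of 4 transcripts in the 7 canary groups (x axis), with HVC as circles, entopallium as squares and the mean of a group as a bar. Each point is 1 bird. XM_002190533 is highest in the HVC of testosterone-implanted females (median 10.37) and lowest in non-breeding females (median 7.71), while its entopallium level stays between 5.46 and 6.41.

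Females that sang spontaneously on short days showed mostly lower levels of these transcripts. Since these females came from an earlier study, singing and origin cannot be told apart in this comparison. In HVC, 21 of the 150 were lower in spontaneously singing females than in non-breeding non-singing females (background 2.1%) and 5 were higher (background 5.71%). The median of the set was -0.18, against 0.09 for all transcripts. Groups did not overlap for 39 of the 150 (26%, background 18.8%). The direction on the array as a whole depended on scaling, with 1487 transcripts higher and 546 lower in the deposited levels 560 higher and 687 lower after quantile scaling and 529 higher and 498 lower without the lowest transcripts. For the 150 the counts were 5 and 21 in the deposited levels and after quantile scaling. The arrays of the spontaneous singers also had a raised low end, with a 1st percentile of 3.18 to 3.37 in HVC, against 2.65 to 2.82 in non-breeding females, and its part in these counts was not tested beyond the scaling.

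XM_002190533 was between 9.17 and 9.43 in spontaneous singers (median 9.29) and between 7.501 and 8.003 in non-singing females (median 7.71), a log2 fold change of 1.57 (SE 0.08, limma adjusted p = 8.25e-07). XM_002190644 was between 8.47 and 8.87 in spontaneous singers (median 8.80) and between 7.32 and 7.59 in non-singing females (median 7.41), a log2 fold change of 1.29 (SE 0.08, limma adjusted p = 1.52e-06). Every spontaneous singer lay above every non-singing female in both.

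Of those that fell, XM_002194650 was between 9.34 and 9.91 in spontaneous singers (median 9.62) and between 10.58 and 10.91 in non-singing females (median 10.74), a log2 fold change of -1.14 (SE 0.11, limma adjusted p = 1.99e-05). ENSTGUT00000007709 was between 9.79 and 10.17 in spontaneous singers (median 9.89) and between 10.90 and 10.9995 in non-singing females (median 10.96), a log2 fold change of -1.03 (SE 0.06, limma adjusted p = 1.52e-06). The groups were far apart in both.

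Season was compared between long-day breeding and short-day non-breeding canaries, and day length changed with it. So did housing, as the paper reports pairs for breeding birds and single sound-attenuated boxes for non-breeding birds before they were killed. In males singing changed too, since only the breeding males sang. Season, day length, housing and, in males, singing cannot be told apart. In the HVC of males, limma called 0 of the 150 in either direction (background 0.00384% higher, 0.0153% lower), and 17 (11.3%) had an unadjusted p under 0.05, as had 10.3% of all transcripts. Groups did not overlap for 0 of the 150 (background 0.902%). In the HVC of females, 7 of the 150 were higher in breeding birds (background 1.18%) and 9 were lower (background 1.53%), with medians of -0.01 for the set and for all transcripts. Groups did not overlap for 28 of the 150 (background 13%). Whether the sexes differed in this respect was not tested.

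ENSGALT00000039273 was between 8.59 and 9.05 in breeding females (median 8.91) and between 7.73 and 8.14 in non-breeding females (median 7.94), a log2 fold change of 0.94 (SE 0.09, limma adjusted p = 2.52e-05). XR_054890 was between 8.29 and 9.03 in breeding females (median 8.65) and between 7.88 and 8.18 in non-breeding females (median 8.07), a log2 fold change of 0.59 (SE 0.10, limma adjusted p = 0.00119). Both were separate between the groups.

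ENSTGUT00000001711 was between 8.89 and 9.48 in breeding females (median 9.06) and between 9.75 and 10.23 in non-breeding females (median 9.95), a log2 fold change of -0.86 (SE 0.10, limma adjusted p = 7.58e-05). XM_002194650 was between 9.66 and 10.10 in breeding females (median 9.94) and between 10.58 and 10.91 in non-breeding females (median 10.74), a log2 fold change of -0.84 (SE 0.08, limma adjusted p = 2.45e-05). All breeding females lay below all non-breeding females. The comparisons with implanted, spontaneously singing and breeding females share the non-breeding females, so the same low or high value of that group enters all of them. The same HVC arrays also serve in the comparison of the sexes in non-breeding canaries and in the interaction with testosterone. These results are therefore not independent of each other.

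The same groups were compared in the entopallium, which formed the other side of the selected difference. Testosterone-implanted females had 32 of the 150 transcripts higher than non-breeding females (background 2.97%) and 1 lower (background 2.94%), with a median of 0.26 for the set and 0.01 for all transcripts. Groups did not overlap for 18 of the 150, 12% of the set and fewer than the background of 17.2%. These values depended on the 2 arrays that stood apart. Without them 11 of the 150 were higher and 5 were lower, and the median of the set was 0.04. The share of all transcripts called in that fit is not given here, so these counts are not set against the array. Without the 2 arrays, groups did not overlap for 25 of the 150 (20.4% of all transcripts). After total intensity scaling 28 of the 150 were higher and 1 lower, with 618 higher and 950 lower over the array, against 773 and 766 in the deposited levels.

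ENSTGUT00000012758 had entopallium levels of 8.51 to 10.24 in implanted females (median 8.98) and of 7.26, 7.16, 7.60, 7.37 and 8.44 in the 5 non-breeding females. Its log2 fold change was 1.66 (SE 0.31, limma adjusted p = 0.00181), and 1.27 (limma adjusted p = 0.00432) without the 2 arrays. ENSTGUT00000009591 had 8.04 to 8.31 in implanted females (median 8.24) and 6.93, 6.82, 6.98, 6.99 and 7.82 in non-breeding females. Its log2 fold change was 1.09 (SE 0.15, limma adjusted p = 0.00031), and 1.05 without the 2 arrays. In both transcripts the fifth non-breeding female was nearest to the implanted birds but did not reach them.

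The 1 transcript that was lower, ENSTGUT00000018905, had 7.88 to 8.96 in implanted females (median 8.33) and 9.05, 9.29, 9.10, 9.23 and 9.39 in non-breeding females, a log2 fold change of -0.82 (SE 0.16, limma adjusted p = 0.00274). It was -1.04 without the 2 arrays. Of the 13 transcripts higher in HVC and the 32 higher in the entopallium of implanted females, 4 were in both lists, 30.8% of the HVC list and 12.5% of the entopallium list. Without the 2 arrays 3 were shared. No background over all transcripts was counted for these overlaps. XM_002190533 was not among the calls of the entopallium. It was between 5.56 and 6.10 in implanted females (median 5.90) and 5.93, 6.09, 5.71, 5.89 and 6.03 in non-breeding females, with a log2 fold change of -0.04 (SE 0.10, limma adjusted p = 0.765).

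In the entopallium of implanted males, 0 of the 150 were higher (background 0.426%) and 9 were lower (background 1.06%) than in non-breeding males, with a median of -0.18, against -0.01 for all transcripts. ENSTGUT00000000859 was between 5.93 and 6.53 in implanted males (median 6.23) and between 6.63 and 7.13 in non-breeding males (median 6.83), a log2 fold change of -0.65 (SE 0.11, limma adjusted p = 0.00225). XR_054975 was between 4.92 and 5.44 in implanted males (median 5.37) and between 5.59 and 6.39 in non-breeding males (median 5.93), a log2 fold change of -0.64 (SE 0.12, limma adjusted p = 0.00356). The groups did not overlap in either, and for 19 of the 150 in all (background 9.2%). The count was 5 without the implanted male of replicate 5.

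Spontaneously singing females had 36 of the 150 transcripts lower in the entopallium than non-singing females (background 2.33%) and 0 higher (background 4.37%). The median was -0.21, against 0.11 for all transcripts. Groups did not overlap for 46 of the 150 (30.7%, background 14.5%). After quantile scaling, 42 of the 150 were lower and 0 higher, while the array as a whole changed to 407 higher and 744 lower, against 1140 and 608 in the deposited levels. The 1st percentile of the arrays was 3.22 to 3.43 in spontaneous singers, against 2.80 to 2.90 in non-singing females.

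XM_002191950 had entopallium levels of 5.40 to 6.71 in spontaneous singers (median 6.41) and of 7.76, 7.61, 7.83, 7.89 and 7.36 in the non-singing females, a log2 fold change of -1.44 (SE 0.21, limma adjusted p = 0.00117). ENSTGUT00000002991 had 5.68 to 6.97 in spontaneous singers (median 6.52) and 7.82, 7.93, 7.54, 8.04 and 7.29 in non-singing females, a log2 fold change of -1.38 (SE 0.23, limma adjusted p = 0.00203). No spontaneous singer reached a non-singing female in either. Of the 21 transcripts lower in HVC and the 36 lower in the entopallium of these birds, 8 were in both lists, 38.1% of the HVC list and 22.2% of the entopallium list. No background over all transcripts was counted for this overlap, nor the overlap that the list sizes alone would give.

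In spontaneous singers, the median change of the difference between HVC and entopallium was smaller than the median change in either tissue. Single transcripts moved both ways there, with a larger difference for 85 of the 150 and a smaller one for 65. Relative to females that neither bred nor sang, the median change of the difference was 0.06 in spontaneous singers and 0.12 in breeding females. In implanted females it was -0.24, and the difference was smaller for 108 of the 150. Without the 2 arrays of implanted females that stood apart, the change was -0.03 and the difference was smaller for 80 of the 150. Relative to males that neither bred nor sang, it was 0.07 in implanted and 0.10 in breeding males. Over all transcripts and arrays, the median change was -0.01 in spontaneous singers, -0.04 in breeding females and -0.03 in implanted females. It was 0.04 in implanted males and 0.01 in breeding males. The numbers of larger and smaller differences were not counted over all transcripts. All these changes are differences of the quantity used for the selection and were not tested.

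Breeding females had 17 of the 150 transcripts lower in the entopallium than non-breeding females (background 2.02%) and 0 higher (background 1.38%), with a median of -0.14, against 0.03 for all transcripts. ENSTGUT00000018905 was between 8.004 and 8.57 in breeding females (median 8.26) and 9.05, 9.29, 9.10, 9.23 and 9.39 in non-breeding females, a log2 fold change of -0.94 (SE 0.10, limma adjusted p = 0.000223). XM_002196156 was between 8.56 and 9.02 in breeding females (median 8.81) and 9.81, 9.54, 9.52, 9.71 and 9.52 in non-breeding females, a log2 fold change of -0.82 (SE 0.09, limma adjusted p = 0.000234). The groups were separate in both, and for 20 of the 150 in all (background 12.5%). The count was 11 without the breeding female of replicate 2. Of the 9 transcripts lower in HVC and the 17 lower in the entopallium of breeding females, 4 were in both lists, 44.4% of the HVC list and 23.5% of the entopallium list. This overlap, too, has no background over all transcripts.

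Breeding males had 2 of the 150 transcripts higher in the entopallium than non-breeding males (background 0.66%) and 3 lower (background 0.353%), with a median of -0.07, against -0.02 for all transcripts. NM_001048262 was between 8.63 and 9.19 in breeding males (median 8.99) and between 8.03 and 8.53 in non-breeding males (median 8.29), a log2 fold change of 0.66 (SE 0.10, limma adjusted p = 0.00138). ENSTGUT00000007709 was between 7.89 and 8.49 in breeding males (median 8.28) and between 8.75 and 8.98 in non-breeding males (median 8.93), a log2 fold change of -0.68 (SE 0.08, limma adjusted p = 0.000466). Breeding and non-breeding males did not overlap in either transcript, and for 5 of the 150 in all, fewer than the background of 7.4%. The count of 5 was 9 without the breeding male of replicate 5.

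The cerebellum provided comparisons of sex and season in arrays that had not served to choose the transcripts. With all arrays in the deposited levels, at most 1 of the 150 was called in each. The shares at an unadjusted p under 0.05 and without overlap lay above those of all transcripts in each. The distance was small between the sexes in non-breeding birds and between the seasons in males, and it was not tested. In breeding canaries 1 of the 150 was higher in males (background 0.437%) and 0 were lower (background 0.111%), and in non-breeding canaries 1 was higher (background 0.675%) and 0 were lower (background 0.104%). The sexes did not overlap for 5 of the 150 in breeding birds (background 2.05%) and for 4 in non-breeding birds (background 1.96%). In breeding birds 30 (20%) had an unadjusted p under 0.05, against 13.5% of all transcripts. In non-breeding birds 15 (10%) had one, against 8.87% of all transcripts. Between breeding and non-breeding males limma called 0 of the 150 (background 0.00767% higher, 0.00384% lower), with 16 (10.7%) at an unadjusted p under 0.05, against 8.07% of all transcripts. Between breeding and non-breeding females it called 0 (background 0.0691% in each direction), with 36 (24%) at an unadjusted p under 0.05, against 16.2% of all transcripts. In females the count was 4 without the breeding bird of replicate 6 and 3 without the non-breeding bird of replicate 6. It was 1 after quantile scaling (background 0.0384% in each direction). The seasons did not overlap for 3 of the 150 in males (background 0.883%) and for 7 in females (background 2.43%).

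The transcript called between the sexes was ENSTGUT00000001711 at both seasons. Its cerebellar level was between 11.19 and 11.57 in breeding males (median 11.31) and between 10.55 and 11.11 in breeding females (median 10.86), a log2 fold change of 0.51 (SE 0.10, limma adjusted p = 0.0144). This call was at the threshold, and the fold change was 0.49, 0.45, 0.48 and 0.47 without the female of replicate 1 or 2 or the male of replicate 4 or 6. In non-breeding birds it was between 11.40 and 11.90 in males (median 11.64) and between 10.90 and 11.06 in females (median 10.97), a log2 fold change of 0.67 (SE 0.08, limma adjusted p = 0.000217). Males lay above all females in both seasons.

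This transcript also had a higher group mean in males in all 5 comparisons of the sexes in HVC, of which the breeding canaries alone passed the test. The log2 fold change in HVC was 0.54 (SE 0.19, limma adjusted p = 0.782) in forest weavers, 0.32 (SE 0.11, limma adjusted p = 0.255) in cordon-bleus, 0.21 (SE 0.12, limma adjusted p = 0.236) in implanted canaries and 0.17 (SE 0.10, limma adjusted p = 0.374) in non-breeding canaries. In the entopallium the male group mean exceeded that of females by 0.48 in forest weavers, 0.47 in cordon-bleus, 0.67 in implanted canaries, 0.77 in breeding canaries and 0.49 in non-breeding canaries, values for which no test was made. Its position in the genome is not given in the files. Its cerebellar level, at the 99.1st percentile of all transcripts, was above its levels in HVC (91.5th percentile) and in the entopallium (68.3rd percentile). The cerebellum arrays were of canaries alone, while the HVC and entopallium values pool all species and the implanted birds.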

How the data were processed

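RNA of microdissected HVC, entopallium and cerebellar molecular layer was hybridised to a custom Affymetrix exon array with zebra finch probes. The authors deposited log2 transcript levels after normalisation between arrays. According to the submitters' processing notes the software was Expression Console, with settings not stated. There were 26061 transcripts and 155 arrays with 0 missing values, array medians lay between 7.13 and 7.45, and identical values occurred in 0 of 385 pairs within groups. The number of arrays limits the precision. Groups follow the sample descriptions. Comparisons of 2 groups used lmFit and eBayes of limma 3.58.1 under R 4.3.3 with defaults, after a test on simulated data. No filter was applied. Named transcripts are the leading 2 and, per comparison, at most 2 higher and 2 lower with the largest fold change among those called without overlap of the groups. XM_002192649, ENSTGUT00000009646, ENSTGUT00000004117, members of correlated pairs or of shared lists, ENSTGUT00000001687 in cordon-bleus and forest weavers and the values of a named transcript in other comparisons were added after their values were seen. The members and lists were chosen with earlier results of these data known. Gene lists and cell type markers could not be applied, as identifiers carry no names. Alternatives were quantile and total intensity scaling, removal of the 25% lowest transcripts, group medians, a block for the replicate number and omission of arrays.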

Additional observations from a re-analysis of the deposited data

Results flagged for a closer look

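Among 89 groups of birds checked for a bird far from the others, 6 held one, and chance gives about 1 in 20. The mean level of the 150 transcripts was 8.31 in the HVC of the forest weaver female of replicate 1, where the other 5 had 9.03 to 9.18, and 7.69 in the entopallium of the cordon-bleu male of replicate 5, where the others had 6.90 to 7.07. In HVC, ENSTGUT00000001711 was 9.48 in the breeding female canary of replicate 3 and 8.89 to 9.07 in the others. In the entopallium, XR_054975 was 4.92 in the implanted male canary of replicate 5 and 5.33 to 5.44 in the others. ENSTGUT00000009591 was 7.82 in the entopallium of the non-breeding female of replicate 5 and 6.82 to 6.99 in the others, and ENSTGUT00000007709 was 8.75 in the entopallium of the non-breeding male of replicate 1 and 8.90 to 8.98 in the others.

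The change with implantation in HVC differed between male and female canaries for 11 of the 150 transcripts by the interaction in limma. Of those named, the interaction was 0.78 for XM_002194650, 0.50 for ENSTGUT00000008337, -1.88 for XM_002190533 and -0.93 for ENSGALT00000014509.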

How the results depend on the processing

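No named transcript changed its direction under the alternatives run. The median of the set changed its sign in 22 of 330 alternatives, in 6 comparisons where it lay within 0.06 of 0, among them the cerebellum between the sexes in non-breeding birds (0.01, and -0.005 after quantile scaling) and between seasons in males (0.004, and -0.006 after total intensity scaling). Without the lowest transcripts the median for breeding against non-breeding females in the cerebellum moved to 0.07. With the replicate number as a block, the count of the 150 transcripts called was 0 for implanted against non-breeding males in HVC (4 without the block) and 18 for implanted against non-breeding females in the entopallium (33 without the block), and no other count moved by over 1.5 times. NM_001048258 had an adjusted p of 0.0571 with the block. The correlation of same-numbered birds was 0.1 or lower for at least 1 pair in every comparison (lowest -0.47 to -0.01, highest 0.002 to 0.338). At most 6 of 12 birds correlated best with their own number, in HVC between the sexes of breeding and of implanted canaries. How many would do so without pairing was not worked out. These values cannot exclude that some numbers pair birds. The numbers were not taken to do so. Without the 2 implanted females that stood apart in the entopallium, an alternative chosen after seeing the data, as was the omission of all 4 arrays, the count there was 16. Quantile scaling gave 1 for breeding against non-breeding females in the cerebellum.

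The rule lost 4 of the 150 after quantile scaling, 13 with group medians, 7 without the 25% lowest transcripts and 19 without the 4 arrays that stood apart. With each array omitted in turn it found 141 to 150 of the 150 again. The count called then ranged, in HVC between the sexes, from 0 to 0 in forest weavers, 1 to 2 in cordon-bleus (2 without the female of replicate 2) and, in canaries, 21 to 26 in breeding, 8 to 12 in non-breeding and 3 to 9 in implanted birds. In HVC against non-breeding birds it ranged from 1 to 9 in implanted males, 15 to 20 in implanted females, 0 to 0 in breeding males, 15 to 17 in breeding females and 25 to 32 in spontaneous singers. In the entopallium the ranges in the same order were 5 to 11, 22 to 37, 4 to 9, 11 to 23 and 34 to 40. In the cerebellum they were 0 to 2 between the sexes in breeding birds (0 without the female of replicate 1 or 2 or the male of replicate 4, 2 without the female of replicate 6), 1 to 2 in non-breeding birds (2 without the female of replicate 5 or the male of replicate 3), 0 to 0 between seasons in males and 0 to 4 in females. For the interaction they were 8 to 13. How many of all transcripts were called without a single array is not given, here or above. A change in the set can therefore not be told from one over the whole array. Values of named transcripts kept their side of the threshold in 662 of 682 checks. The cause of these changes was not tested.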
